A study of Mus musculus with 6 samples.

Results

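Transcripts of 28 genes for cholesterol synthesis and its control were followed in EO771 cells, a mouse mammary tumour line, with and without recombinant lipocalin-2 (LCN2). They were taken by symbol from a deposited table of 19832 genes, and all 28 were found. They comprise 18 synthesis enzymes, 7 regulators of sterol regulatory element binding proteins (SREBPs) and 3 sterol transport genes. Per the labels, 3 libraries came from EO771 tumour cells treated with LCN2 protein and 3 from Control cells of the same line, named LCN2 1 to LCN2 3 and Control 1 to Control 3 below. The labels name no dose, exposure time, vehicle, batch or day, and do not say whether each library came from a culture of its own, so the p-values may in part reflect technical spread. LCN2, a secreted protein, captures the siderophores with which microbes and cells carry iron. The series concerns LCN2-positive mast cells and cancer stemness, and the comparison asks how the tumour cells' transcriptome differs when LCN2 is added.

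Cells build cholesterol from acetyl-CoA through mevalonate, isoprenoid diphosphates, squalene and lanosterol. SREBP2, encoded by Srebf2, is the main activator of these enzyme genes. When sterols are low in the endoplasmic reticulum, the escort protein SCAP carries SREBPs to the Golgi, where a pair of proteases releases the active factor. When sterols are plentiful, INSIG proteins hold SCAP back. Proliferating tumour cells use the pathway for membranes and for prenylated proteins.

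The deposited values were treated as FPKM (fragments per kilobase of transcript, adjusted for the size of the library), a unit inferred from the values and stated by neither header nor label. The number of reads behind them is unknown. Each column summed to between 391569 and 410808, and 13299 to 13461 genes per library were above 0. On the first principal component, LCN2 2 lay at 4.34, between the other LCN2 libraries at 15.7 and 16.5 and the Control libraries at -17.3 to -8.09, so results below are also given without it where they differ. It was singled out only for this position, and leaving out the library nearest the other group tends to widen differences. Of 5 epithelial markers, 4 (Krt8, Krt18, Krt19 and Epcam) reached 1 FPKM and Cdh1 was near 0. Summed over the 5, the level was 1181 to 1196 FPKM in LCN2 libraries and 1222 to 1285 FPKM in Control libraries. The markers in this sum went different ways. Krt18 averaged more in LCN2 cells (746 FPKM, against 693 FPKM in Control cells). Krt8 (244 against 308 FPKM), Krt19 (187 against 228 FPKM) and Epcam (13.4 against 16.4 FPKM) averaged less. The 3 fibroblast markers in the table summed to 581 to 612 FPKM in LCN2 libraries and 489 to 545 FPKM in Control libraries. Nearly all of that was decorin (Dcn), which averaged 595 FPKM in LCN2 cells and 504 FPKM in Control cells. Pdgfra went the other way (3.61 against 4.30 FPKM), and Col1a1 was near 0. The 2 leukocyte markers in the table summed to 8.83 to 9.43 FPKM in LCN2 libraries and 7.50 to 9.55 FPKM in Control libraries, nearly all of it Cd68, with Ptprc near 0. Mast cell markers were at 0 in 4 of 5 genes and summed to at most 0.153 FPKM in LCN2 and 0.111 FPKM in Control libraries, and the 3 endothelial markers to at most 0.66 FPKM in LCN2 and 0.472 FPKM in Control libraries. In the limma test used below, Dcn (adjusted p = 0.0062) and Krt18 (0.031) passed as higher, and Krt8 (0.0096) and Krt19 (0.023) as lower. Krt18 was lost with values as deposited (0.13). Epcam (0.056), Pdgfra (0.24) and Cd68 (0.15) did not pass. The part of these shifts in the results below was not tested. In bulk RNA, fewer cells of a type and less RNA per cell cannot be told apart.

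Most cholesterol synthesis enzymes were lower in LCN2-treated cells. Of the 18, 12 fell, 1 rose (Msmo1) and 5 did not pass the test, where a pass is a Benjamini-Hochberg adjusted p under 0.05 over all 10309 genes tested with limma. Among all tested genes 9.73% fell, 11.8% rose and 21.5% changed in either direction. The median log2 fold change of the enzymes was -0.42, against 0.0008 over all tested genes, and 16 of the 18 values were below 0. After scaling between libraries, the levels of the groups did not overlap in 14 enzymes, with LCN2 below in 13 and above in 1, against 21.6% and 23.0% of all tested genes. In FPKM without scaling, as printed below, LCN2 also lay below Control without overlap in Hsd17b7 and Tm7sf2. Fold changes are differences of LCN2 from Control in mean log2(FPKM + 1), a scale that shrinks changes at low levels. With values as deposited, without scaling between libraries, 14 enzymes fell and 0 rose, while over all genes the split moved to 693 higher and 1680 lower from the 1213 higher and 1003 lower found after scaling. All 28 members passed the filter of a mean of at least 1 FPKM.

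**Figure D1:**
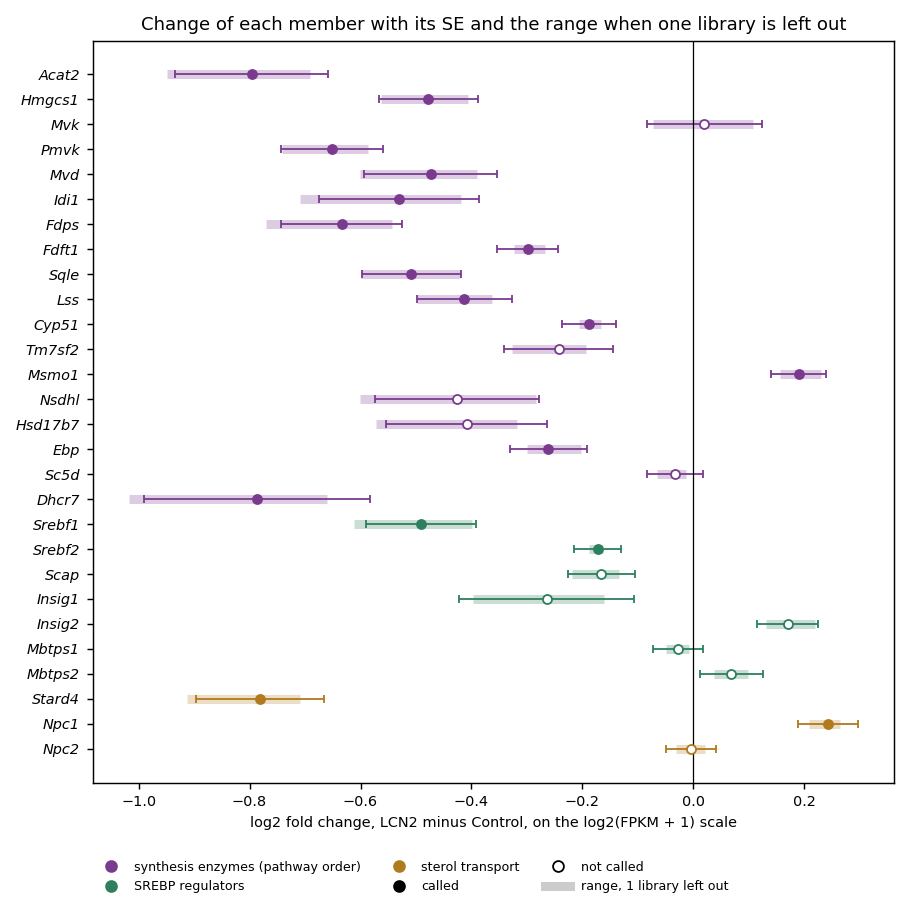
Log2 fold change of each of the 28 members (points, LCN2 minus Control) with its SE (thin bars) and the range over the 6 fits that each left out 1 library (thick bars); filled points passed the test. Acat2, Dhcr7 and Stard4 lie near -0.8, and Msmo1 and Npc1 are the filled points above 0.

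The entry steps, from acetyl-CoA units to farnesyl diphosphate, fell in 6 of 7 enzymes, with a median log2 fold change of -0.53. Acat2 (chromosome 17, 12942890 to 12960747, GRCm38), the cytosolic thiolase that joins acetyl-CoA units, had 2.83, 4.10 and 2.52 FPKM in LCN2 cells, against 6.84, 5.92 and 6.35 FPKM in Control cells. The groups were well apart, and the mean fell by 50.6% (log2 fold change -0.80, SE 0.14, adjusted p = 0.012). Hmgcs1, the HMG-CoA synthase of the cytosol, had 11.9, 15.3 and 12.9 FPKM in LCN2 cells, against 20.6, 19.0 and 19.7 FPKM in Control cells. It was lower in every LCN2 library than in any Control library (log2 fold change -0.48, SE 0.09, adjusted p = 0.015). Mvk, mevalonate kinase, did not follow its neighbours. It had 3.96, 4.62 and 5.34 FPKM in LCN2 cells, against 4.53, 5.43 and 4.32 FPKM in Control cells, and the groups overlapped throughout (log2 fold change 0.02, SE 0.10, adjusted p = 0.91). Its log2 fold change turned to -0.03 with values as deposited and to -0.0051 with libraries scaled to column sums.

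Pmvk (chromosome 3, 89454541 to 89469013), the phosphomevalonate kinase, had 6.07, 7.88 and 6.45 FPKM in LCN2 cells, against 11.6, 11.2 and 12.3 FPKM in Control cells. This was the enzyme with the smallest adjusted p (log2 fold change -0.65, SE 0.09, adjusted p = 0.0075), and its mean fell by 41.8%. Mvd, the decarboxylase that makes isopentenyl diphosphate, averaged 2.28 ± 0.545 FPKM in LCN2 cells and 3.66 ± 0.205 FPKM in Control cells (SD, n = 3 each; log2 fold change -0.47, SE 0.12, adjusted p = 0.032). Idi1, which isomerises that product, had 4.79, 7.24 and 4.43 FPKM in LCN2 cells, against 8.51, 8.35 and 8.83 FPKM in Control cells. LCN2 1 and 3 were far below the Controls and LCN2 2 only a little below them (log2 fold change -0.53, SE 0.14, adjusted p = 0.039). Fdps, farnesyl diphosphate synthase, had the highest level of all members in Control cells. It had 29.4, 38.7 and 27.5 FPKM in LCN2 cells, against 52.4, 52.4 and 50.2 FPKM in Control cells, with no overlap and a mean that fell by 38.4% (log2 fold change -0.63, SE 0.11, adjusted p = 0.012). On the same strand, 1124 of its 4208 exon bases are shared with the predicted gene Gm43738, so reads of the pair cannot be told apart.

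The steps committed to sterols, from squalene synthase on, fell in 6 of 11 enzymes and rose in 1, with a median log2 fold change of -0.30. Fdft1, squalene synthase, stood at 7.11, 6.96 and 7.18 FPKM in LCN2 cells, against 9.01, 10.2 and 8.90 FPKM in Control cells. The LCN2 values lay close together and below all Controls (log2 fold change -0.30, SE 0.05, adjusted p = 0.014). Sqle, squalene epoxidase and a rate-limiting step, had 29.1, 33.8 and 25.7 FPKM in LCN2 cells, against 45.0, 43.2 and 44.1 FPKM in Control cells. Its mean fell by 33.0%, the groups again not overlapping (log2 fold change -0.51, SE 0.09, adjusted p = 0.013). Lss, which closes the ring to lanosterol, averaged 3.89 ± 0.552 FPKM in LCN2 cells and 5.73 ± 0.104 FPKM in Control cells (SD, n = 3 each; log2 fold change -0.41, SE 0.09, adjusted p = 0.019). Cyp51, the lanosterol demethylase, had a smaller fold change, with 12.8, 12.8 and 12.1 FPKM in LCN2 cells, against 14.4, 15.8 and 15.1 FPKM in Control cells (log2 fold change -0.19, SE 0.05, adjusted p = 0.033).

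Msmo1, the methyl sterol oxidase, was the 1 enzyme that rose. Msmo1 (chromosome 8, 64718139 to 64733792) had 38.5, 36.5 and 39.9 FPKM in LCN2 cells, against 34.4, 35.7 and 34.8 FPKM in Control cells. Every LCN2 library was above every Control library, by a small margin (log2 fold change 0.19, SE 0.05, adjusted p = 0.035), but the call was lost with values as deposited (adjusted p = 0.11) and with no variance trend (adjusted p = 0.052). It acts with Nsdhl and Hsd17b7 to take methyl groups off lanosterol derivatives, and those partners had negative fold changes that missed the threshold. Nsdhl, the sterol dehydrogenase of that complex, had 3.45, 4.99 and 2.82 FPKM in LCN2 cells, against 5.63, 5.47 and 5.40 FPKM in Control cells (log2 fold change -0.43, SE 0.15, adjusted p = 0.075). Hsd17b7, its keto reductase, had 1.41, 2.45 and 1.47 FPKM in LCN2 cells, against 3.07, 2.62 and 2.56 FPKM in Control cells (log2 fold change -0.41, SE 0.15, adjusted p = 0.081). In both, LCN2 2 lay close to the Controls and the other 2 LCN2 libraries far below. Without LCN2 2 both passed, Nsdhl at a log2 fold change of -0.60 (adjusted p = 0.0053) and Hsd17b7 at -0.57 (adjusted p = 0.0085). With the LCN2 library nearest the Controls left out, larger fold changes were bound to follow, so these passes add no support.

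The last steps were mixed. Ebp, the sterol isomerase, fell, with 7.66, 8.76 and 8.86 FPKM in LCN2 cells, against 9.95, 11.2 and 11.1 FPKM in Control cells (log2 fold change -0.26, SE 0.07, adjusted p = 0.036). Dhcr7 (chromosome 7, 143823145 to 143848410), the reductase of the final step in the Kandutsch-Russell route, had 1.41, 2.86 and 1.33 FPKM in LCN2 cells, against 4.77, 3.41 and 3.78 FPKM in Control cells. Its mean fell by 53.2%, the largest relative fall among the 28, from a low level (log2 fold change -0.79, SE 0.20, adjusted p = 0.034). Tm7sf2, a sterol reductase, belongs to an earlier step, between Cyp51 and Msmo1 in pathway order. It had 2.03 ± 0.203 FPKM in LCN2 cells and 2.71 ± 0.391 FPKM in Control cells (SD, n = 3 each) and did not pass (-0.24, adjusted p = 0.11). On its own strand, 532 of its 4403 exon bases are shared with Vps51. Sc5d, the sterol desaturase, had 12.2 ± 0.516 FPKM in LCN2 cells and 13.1 ± 0.554 FPKM in Control cells (SD, n = 3 each), with overlapping groups (-0.03, adjusted p = 0.66). Only Mvk, Sc5d and Msmo1 had log2 fold changes above -0.1 among the enzymes.

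**Figure D2:**
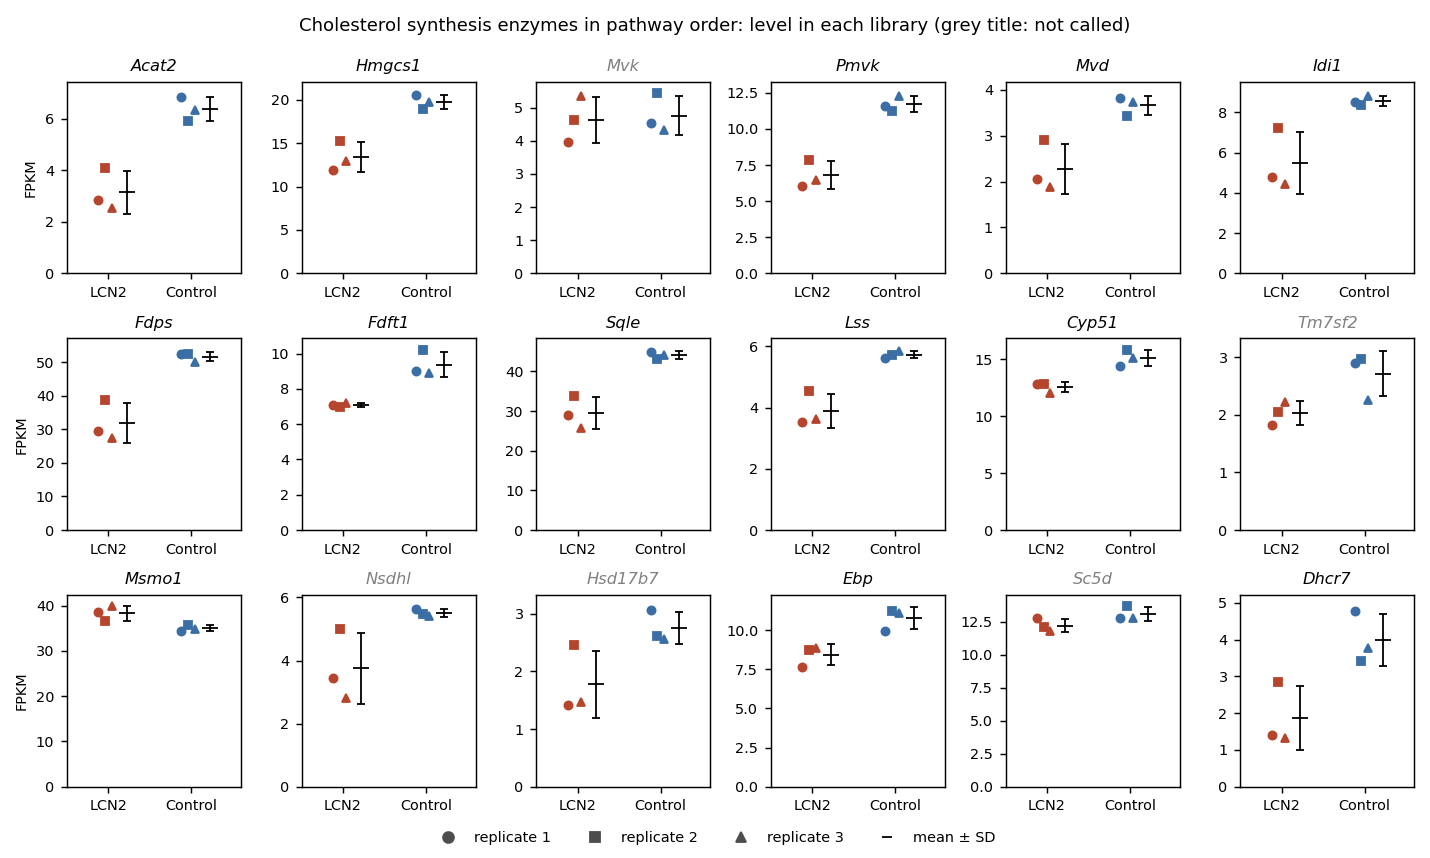
FPKM of the 18 enzymes in pathway order, each point a library (3 LCN2, 3 Control) with group mean ± SD; each panel has its own axis from 0, and grey titles did not pass the test. LCN2 2 (squares) is the LCN2 library nearest the Controls in 9 of the 12 enzymes that fell.

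Summed over the 18 enzymes, the level was 181, 209 and 178 FPKM in LCN2 1 to 3, against 256, 256 and 252 FPKM in Control 1 to 3. The median deviation from the Control mean on the log2(FPKM + 1) scale was -0.51, -0.23 and -0.53 in the LCN2 libraries and between -0.05 and 0.03 in the Control libraries, while the same median over all tested genes lay between 0 and 0.006. LCN2 2 thus moved less than its group. This was also so beyond the pathway, since it was the highest LCN2 library in 75.0% of the enzymes that fell and in 81.3% of all 1003 genes that fell. Without it the median log2 fold change of the enzymes was -0.57, 14 of them fell and 1 rose. LCN2 2 was singled out because it lay nearest the Controls, so larger falls without it add no support.

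**Figure D3:**
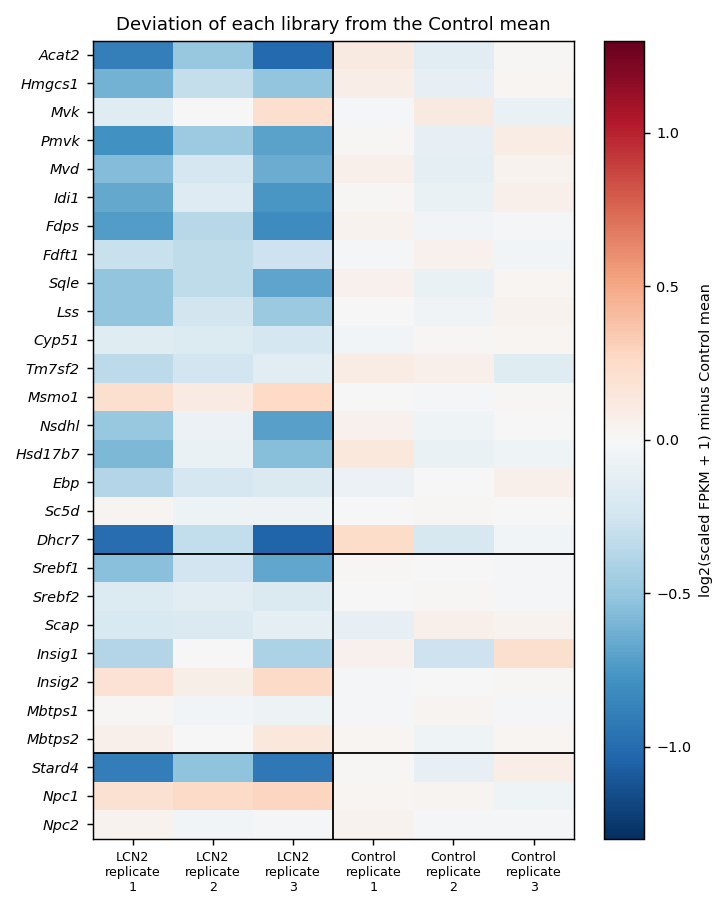
Deviation of each library (columns, LCN2 left of Control) from the Control mean for the 28 members (rows; lines part enzymes, regulators and transport genes), in log2(scaled FPKM + 1) units. LCN2 1 and 3 are similar over the enzymes, at medians of -0.51 and -0.53, and LCN2 2 is paler at -0.23.

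The number of passes changed with the libraries used. Of the 17 members that passed, the number that still passed was 6 when Control 1 was left out, 12 for Control 2, 4 for Control 3, 2 for LCN2 1, 17 for LCN2 2 and 6 for LCN2 3. Pmvk and Stard4 passed in all 6 of these fits, with an adjusted p of up to 0.040 and 0.044. All 17 kept their sign under each of the 15 alternative settings, which is a weak check. Settings that changed only the filter, the variance trend or the replicate block could not change a fold change. In all 17 the groups did not overlap after scaling, so leaving out 1 library could hardly turn a sign. Among the fits that left out a library, Fdps and Fdft1 were lost only without LCN2 1 (adjusted p = 0.058 and 0.062). Acat2 and Sqle were lost without Control 3 or LCN2 1 (up to 0.059 for both). Hmgcs1, Lss, Mvd, Dhcr7, Srebf1 and Npc1 were lost whenever any library other than Control 2 and LCN2 2 was left out, the adjusted p reaching 0.060, 0.075, 0.11, 0.12, 0.074 and 0.086 in that order. Idi1, Cyp51, Ebp, Msmo1 and Srebf2 passed only in the fit without LCN2 2, with adjusted p of up to 0.13, 0.11, 0.11, 0.12 and 0.10 in the others. With no filter on low values Mvd, Idi1, Ebp and Dhcr7 were lost. Exons of other enzymes and of Srebf1 also overlap genes on the opposite strand, and the strand setting of the counting is not known: 774 of 4227 bases in Fdft1 (with Ctsb), 557 of 4594 in Hmgcs1, 323 of 3505 in Idi1, 381 of 10787 in Lss, 166 of 4415 in Cyp51 and 109 of 5634 in Srebf1.

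Promoters are shown for the 5 enzymes that fell with the smallest adjusted p and an entry in the RefSeq promoter table (GRCm38.p6, 250 bases before to 50 after the transcript start), and for Msmo1, added after its rise was seen, so that a reader can set the oppositely moving enzyme beside the others. Of the 28 members, 23 had an entry. Each is read 5′ to 3′ on the gene's strand, and capitals mark a CCAAT box (CCAAT or its complement ATTGG, the site of NF-Y, a partner of SREBPs) or an SREBP site (TCACNCCAC, or the short form TCACCCCA that overlaps it). The windows are Acat2 chr17:12960676-12960975, reverse strand; Hmgcs1 chr13:119690101-119690400, forward strand; Pmvk chr3:89454291-89454590, forward strand, the more upstream of 2 entries. They are followed by Mvd chr8:122443373-122443672, reverse strand, Lss chr10:76531355-76531654, forward strand and Msmo1 chr8:64733529-64733828, reverse strand.
Acat2: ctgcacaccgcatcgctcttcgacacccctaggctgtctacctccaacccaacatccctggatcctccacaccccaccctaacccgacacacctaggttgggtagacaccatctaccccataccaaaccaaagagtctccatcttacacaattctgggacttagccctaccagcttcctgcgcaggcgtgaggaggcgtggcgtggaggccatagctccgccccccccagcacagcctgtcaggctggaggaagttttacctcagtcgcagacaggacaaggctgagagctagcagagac
Hmgcs1: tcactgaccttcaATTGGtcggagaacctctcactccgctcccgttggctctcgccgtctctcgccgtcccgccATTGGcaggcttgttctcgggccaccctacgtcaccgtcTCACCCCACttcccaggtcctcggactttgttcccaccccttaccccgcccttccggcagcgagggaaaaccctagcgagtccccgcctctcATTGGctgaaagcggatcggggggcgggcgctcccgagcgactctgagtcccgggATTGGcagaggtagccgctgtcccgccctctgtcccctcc
Pmvk: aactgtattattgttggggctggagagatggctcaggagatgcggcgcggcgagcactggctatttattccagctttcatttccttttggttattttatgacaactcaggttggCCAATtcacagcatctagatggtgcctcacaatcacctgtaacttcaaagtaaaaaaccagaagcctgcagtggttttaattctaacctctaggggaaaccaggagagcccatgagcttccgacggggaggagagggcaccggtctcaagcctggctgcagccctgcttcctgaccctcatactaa
Mvd: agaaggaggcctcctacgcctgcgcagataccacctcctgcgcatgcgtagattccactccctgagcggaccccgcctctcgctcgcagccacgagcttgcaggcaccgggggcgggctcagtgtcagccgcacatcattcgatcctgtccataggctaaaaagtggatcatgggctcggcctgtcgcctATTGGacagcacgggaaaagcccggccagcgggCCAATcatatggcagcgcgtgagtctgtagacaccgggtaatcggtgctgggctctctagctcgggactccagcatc
Lss: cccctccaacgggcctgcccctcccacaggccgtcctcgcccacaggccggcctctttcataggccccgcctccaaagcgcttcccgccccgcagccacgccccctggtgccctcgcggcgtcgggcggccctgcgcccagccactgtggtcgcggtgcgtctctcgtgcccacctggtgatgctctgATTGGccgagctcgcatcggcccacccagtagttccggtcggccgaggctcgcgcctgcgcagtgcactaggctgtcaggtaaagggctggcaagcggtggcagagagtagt
Msmo1: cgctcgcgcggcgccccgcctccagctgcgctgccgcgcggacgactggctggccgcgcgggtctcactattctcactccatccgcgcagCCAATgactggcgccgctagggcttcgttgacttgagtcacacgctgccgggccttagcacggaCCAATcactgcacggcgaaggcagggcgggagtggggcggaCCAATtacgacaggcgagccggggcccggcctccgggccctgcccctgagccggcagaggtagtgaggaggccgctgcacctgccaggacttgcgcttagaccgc

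A CCAAT box was present in 13 of 15 enzyme promoters (86.7%), all but Acat2 and Dhcr7, against 38.15% of the 10581 promoters of tested genes and 37.41% of all 32851 promoters in the table. Acat2 and Dhcr7, without a box, had the most negative log2 fold changes of the 18 enzymes (-0.80 and -0.79). Only 1 of the 3 Dhcr7 entries was searched, the one nearest the annotated 5′ end of the gene. A link between boxes and fold changes was not tested. Fdps, Fdft1 and Sqle, which also fell, had no entry and were not searched. The other enzymes that fell and had an entry held 1 to 4 boxes. Those that did not pass held 1 to 5, and Msmo1, which rose, held 3. The letters TCACNCCAC, searched on both strands, occurred only in Hmgcs1 among the 15, between 137 and 129 bases upstream of the start, and in 1.08% of promoters of tested genes. A GC box (GGGCGG, bound by Sp1) was found in 14 of 15 enzymes, against 64.33% of tested genes, and an E-box (CACGTG) in 2, against 10.31%. A match is a description of these letters, and its absence from a 300-base window says nothing of binding elsewhere.

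**Figure D4:**
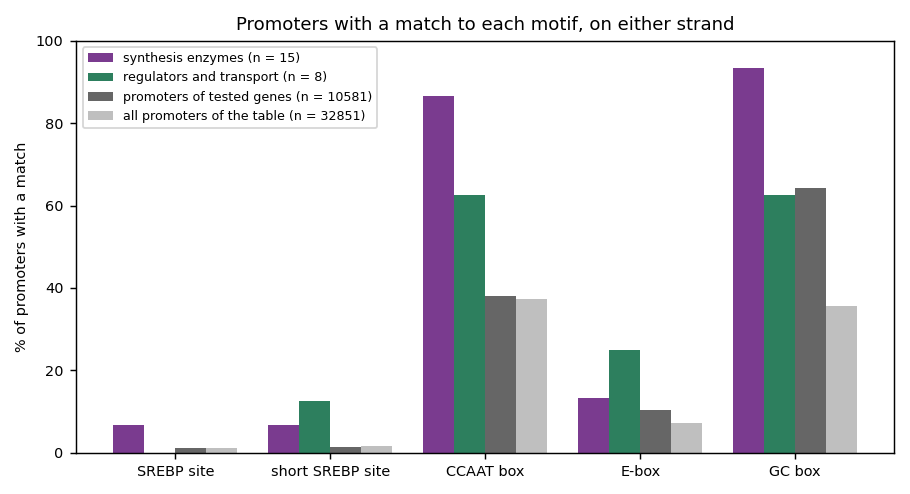
Share of promoters (%) with at least 1 match on either strand for synthesis enzymes (n = 15), regulators and transport genes (n = 8), promoters of tested genes and all promoters of the table. CCAAT boxes occur in 86.7% of the enzyme promoters and 38.15% of those of tested genes.

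Among the SREBP regulators, 2 of 7 fell and 0 rose, both of them genes for the factors themselves. Over all tested genes 9.73% fell and 11.8% rose. Srebf1 (chromosome 11, 60199089 to 60222581), which encodes SREBP1, the factor tied more to fatty acid genes, had 23.6, 29.6 and 21.4 FPKM in LCN2 cells, against 36.4, 38.1 and 35.5 FPKM in Control cells. All LCN2 libraries were below all Controls and the mean fell by 32.1% (log2 fold change -0.49, SE 0.10, adjusted p = 0.018). Srebf2 had 18.5, 19.2 and 18.2 FPKM in LCN2 cells, against 21.7, 23.2 and 21.3 FPKM in Control cells. Its fall was smaller but tight within groups (log2 fold change -0.17, SE 0.04, adjusted p = 0.03). The table does not separate the transcript forms of Srebf1.

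None of the 5 genes for retention, transport and cleavage of SREBPs passed the test. Scap, the escort, had 12.8, 13.0 and 13.6 FPKM in LCN2 cells, against 14.1, 16.9 and 15.7 FPKM in Control cells, without overlap but short of the threshold (-0.17, adjusted p = 0.087). On the other strand, 985 of its 7443 exon bases are shared with the transcript 5830462I19Rik. Insig1, itself a textbook SREBP target, was the lowest of the 28, at 1.36, 2.10 and 1.31 FPKM in LCN2 cells, against 2.26, 1.69 and 2.63 FPKM in Control cells. LCN2 2 and Control 2 made the groups overlap (-0.26, adjusted p = 0.25). Insig2, its paralogue, had 27.0, 25.2 and 28.004 FPKM in LCN2 cells, against 23.9, 25.7 and 24.4 FPKM in Control cells (0.17, adjusted p = 0.061). It was 10-fold or more above Insig1 in FPKM in both groups and passed as a rise only without LCN2 2 (log2 fold change 0.22, adjusted p = 0.014). LCN2 2 was again the LCN2 library nearest the Controls, so a larger rise without it was bound to follow. The Golgi proteases that release SREBPs had overlapping groups, with 22.5 ± 0.746 FPKM in LCN2 cells and 24.1 ± 1.40 FPKM in Control cells for Mbtps1 (-0.03, adjusted p = 0.69) and 10.2 ± 0.392 FPKM in LCN2 cells and 10.1 ± 0.0427 FPKM in Control cells for Mbtps2 (0.07, adjusted p = 0.4; SD, n = 3 each). On the same strand, 2867 of the 10105 exon bases of Mbtps2 are shared with Yy2, so reads of the pair cannot be told apart there.

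The promoters of both SREBP genes are shown because these are the regulators that fell. They lie at chr11:60222532-60222831, reverse strand, for the most upstream of 3 Srebf1 entries, and chr15:82147019-82147318, forward strand for Srebf2, with capitals as above.
Srebf1: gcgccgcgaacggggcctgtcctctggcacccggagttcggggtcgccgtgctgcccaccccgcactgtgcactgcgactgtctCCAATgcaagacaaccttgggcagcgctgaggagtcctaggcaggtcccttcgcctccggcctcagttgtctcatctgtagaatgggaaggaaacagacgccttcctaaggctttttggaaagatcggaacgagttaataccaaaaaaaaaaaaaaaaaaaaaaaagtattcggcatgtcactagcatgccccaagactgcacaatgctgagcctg
Srebf2: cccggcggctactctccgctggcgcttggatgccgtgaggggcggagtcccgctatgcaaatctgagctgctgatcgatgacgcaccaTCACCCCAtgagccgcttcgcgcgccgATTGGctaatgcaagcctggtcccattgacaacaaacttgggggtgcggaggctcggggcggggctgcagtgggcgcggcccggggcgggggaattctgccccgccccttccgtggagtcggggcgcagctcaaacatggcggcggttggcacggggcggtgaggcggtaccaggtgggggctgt
The Srebf2 window holds the short SREBP letters 162 to 155 bases upstream of the start, beside an inverted CCAAT box at 135 to 131. This short form was searched after the sequences were seen and occurs in 1.46% of promoters of tested genes.

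The 3 sterol transport genes went different ways. Stard4, a small carrier that moves sterol between membranes and an SREBP target, had 4.48, 6.22 and 4.37 FPKM in LCN2 cells, against 9.60, 9.23 and 10.2 FPKM in Control cells. Its mean fell by 48.0% with no overlap (log2 fold change -0.78, SE 0.12, adjusted p = 0.0089). Npc1, the lysosomal membrane protein that exports sterol freed from lipoproteins, had 10.1, 10.6 and 10.7 FPKM in LCN2 cells, against 9.08, 9.75 and 8.55 FPKM in Control cells. After scaling every LCN2 library was above every Control library (log2 fold change 0.24, SE 0.05, adjusted p = 0.023), but the call was lost with values as deposited (adjusted p = 0.079). On the other strand, 511 of its 11317 exon bases are shared with Rmc1. Npc2, its soluble partner in the lysosome, had 34.3 ± 1.07 FPKM in LCN2 cells and 36.0 ± 1.07 FPKM in Control cells (SD, n = 3 each) and overlapping groups (-0.00, adjusted p = 0.95).

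**Figure D5:**
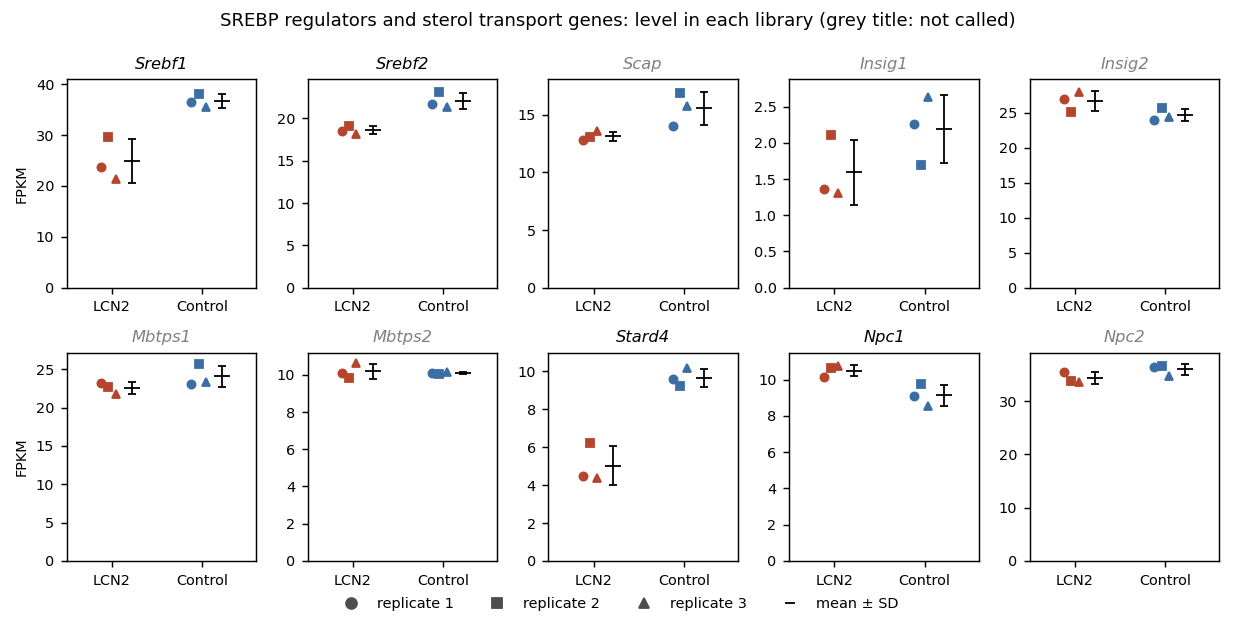
FPKM of the 7 SREBP regulators and 3 sterol transport genes in each library, with group mean ± SD; axes start at 0 and grey titles did not pass the test. Srebf1 and Stard4 show the widest gaps between LCN2 and Control libraries, while Mbtps1, Mbtps2 and Npc2 overlap after scaling.

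Fatty acid genes known as SREBP targets also fell, in 7 of 14 tested genes with 0 rises and a median log2 fold change of -0.24. Over all tested genes 9.73% fell and 11.8% rose. The desaturase gene Scd2 averaged 142 ± 29.7 FPKM in LCN2 cells and 252 ± 6.11 FPKM in Control cells (log2 fold change -0.78, adjusted p = 0.0099). Fads2 (-0.50), the elongase gene Elovl6 (-0.52) and Fads1 (-0.23) followed, given as log2 fold changes. Among the fits that left out a library, Scd2, Fads2 and Elovl6 were lost only without LCN2 1 (adjusted p of up to 0.056). Fads1 was lost whenever any library other than Control 2 and LCN2 2 was left out (up to 0.076). With the replicate block Scd2 still passed (adjusted p = 0.047), and Fads2 (0.052), Elovl6 (0.051) and Fads1 (0.074) were lost.

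Genes for the sterol-triggered degradation of endoplasmic reticulum proteins gave 3 rises and 1 fall among 11 tested, with a median log2 fold change of 0.11. Beside this list and the next, 11.8% of all tested genes rose and 9.73% fell. The ubiquitin-conjugating enzyme genes Ube2j2 (0.32) and Ube2g2 (0.25) and the membrane adaptor gene Faf2 (0.15) rose, and the extracting ATPase gene Vcp fell (-0.17). With values as deposited the 3 rises were lost (adjusted p = 0.056, 0.090 and 0.24 in that order). Of 16 tested genes for other sterol transfer and uptake, the scramblase gene Tmem41b (0.40) and the oxysterol-binding-protein-like gene Osbpl9 (0.25) rose and the endocytic receptor gene Lrp1 fell (-0.18), with a median of -0.04. With values as deposited Osbpl9 was lost (adjusted p = 0.084). Among the fits that left out a library, Tmem41b was lost only without LCN2 1 (adjusted p = 0.053). With the replicate block every gene named in this paragraph was lost (adjusted p of 0.053 to 0.12). With no filter on low values Ube2j2, Ube2g2 and Vcp were lost (adjusted p = 0.067, 0.067 and 0.054 in that order), with no variance trend Ube2g2 and Vcp (0.055 and 0.065), and with libraries scaled to column sums Faf2 (0.080). Vcp and Osbpl9 were lost whenever any library other than Control 2 and LCN2 2 was left out, and Ube2j2, Ube2g2, Faf2 and Lrp1 whenever any other than LCN2 2 was (adjusted p of up to 0.13).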

How the data were processed

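The authors deposited 1 table of values per gene and library. The table is named for raw counts, yet whole numbers made up 0% of the values above 0 (tolerance 1e-09). The unit was taken as FPKM, inferred from the deposited values: multiplied by the longest annotated transcript in kilobases they summed to between 1032628 and 1095179 per library. Genome build GRCm38 is given in the submitters' processing notes. Aligner, quantifier and strand setting: not given in the sources used here. Per the labels' protocols, an RNeasy kit served for RNA and a SMARTer mRNA kit for libraries.

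The 10309 genes whose mean over the 6 libraries reached 1 FPKM were scaled by unweighted TMM factors (trims 0.3 and 0.05, factors 0.970 to 1.06), transformed to log2(FPKM + 1) and tested with limma 3.58.1 in R 4.3.3 with a variance trend, LCN2 against Control, two-sided, with Benjamini-Hochberg adjustment over all tested genes. Means ± SD use FPKM without scaling. The test was tried on simulated data with known changes, in which each gene varied independently. That trial could not show how passes behave when 1 library shifts many genes together, as LCN2 2 did. Depth is unknown, so no counting interval is given. The 28 members, all lists and the design were chosen with earlier results of these data known. Of genes that are not members, up to 4 that passed with the smallest adjusted p are named per list. Exon positions are from GENCODE M21, where 19752 IDs of the table were found and 80 were not. Alternatives were other scalings, pseudocount and filters, no variance trend, a replicate block and leaving out each library. Genes of the pathway outside the members and the named lists are not analysed here.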

Additional observations from a re-analysis of the deposited data

How the results depend on the processing

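With values as deposited, 693 genes were higher and 1680 lower, 0 enzymes and 0 regulators or transport genes were higher, Msmo1 and Npc1 lost their calls and Nsdhl and Hsd17b7 gained one. Without the filter on low values 601 genes were lower. With no variance trend 0 enzymes were higher. The other scalings, a pseudocount of 0.1 and a filter at 0.1 FPKM kept all 17 member calls.

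Leaving out 1 library gave between 268 and 3160 genes called, 179 to 1659 higher and 89 to 1501 lower. Among enzymes it gave 1 to 14 lower and 0 to 1 higher, with a median log2 fold change between -0.57 and -0.36. Among regulators and transport genes it gave 1 to 3 lower and 0 to 2 higher. The lowest number of enzymes was without LCN2 1, and the highest without LCN2 2. The cause was not tested.

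Same-numbered libraries did not deviate together (correlations across genes of -0.224, -0.261 and 0.009 for numbers 1 to 3), and the numbers share no stated origin. With a replicate block 262 genes were called, 181 higher and 81 lower, and of the members 1 enzyme (Pmvk, adjusted p = 0.048) was lower, 0 enzymes were higher and 0 regulators or transport genes were lower or higher.

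Mvk, not called in any setting, turned to -0.034 as deposited and -0.0051 scaled to column sums, and lay between -0.074 and 0.11 when a library was left out. Npc2, also not called, lay between -0.031 and 0.020 then.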

Other observations

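Genes of the isoprenoid branch, which turns farnesyl diphosphate into prenyl groups, dolichol and ubiquinone, gave 2 rises and 1 fall among 15 tested, with a median log2 fold change of -0.04. Beside this list and the next, 11.8% of all tested genes rose and 9.73% fell. The prenyl-protein protease gene Rce1 averaged 19.1 ± 0.896 FPKM in LCN2 cells and 16.3 ± 0.360 FPKM in Control cells (log2 fold change 0.28, adjusted p = 0.016). The ubiquinone synthesis gene Coq2 rose (0.22, adjusted p = 0.037; lost with values as deposited, adjusted p = 0.12) and the farnesyltransferase subunit gene Fnta fell (-0.24, adjusted p = 0.030). Rce1 was lost when Control 3 or an LCN2 library other than LCN2 2 was left out (up to 0.069), and Coq2 and Fnta in all fits that left out a library but that without LCN2 2 (up to 0.13). On the side of the oxysterol-sensing nuclear receptors LXR, 2 of 5 tested genes fell and 0 rose, the receptor gene Nr1h2 (-0.23, adjusted p = 0.043) and the phospholipid acyltransferase gene Lpcat3 (-0.17, adjusted p = 0.028), both lost in all fits that left out a library but that without LCN2 2 (up to 0.11). With no filter on low values Coq2, Fnta and Nr1h2 were also lost (0.059, 0.0503 and 0.069), with column sums Coq2 (0.058), and with no variance trend Nr1h2 (0.059) and Lpcat3 (0.050027), all adjusted p. With the replicate block Rce1, Coq2, Fnta, Nr1h2 and Lpcat3 were all lost (adjusted p of 0.054 to 0.086). Abcg1, Ch25h and Cyp7b1 were below the filter.

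Within each library, the log2 ratio of Msmo1 to Nsdhl, which no single factor per library can move, was 3.48, 2.87 and 3.82 in LCN2 1 to 3 and 2.61, 2.70 and 2.69 in Control 1 to 3, without overlap. As deposited, Msmo1 was above and Nsdhl below all Controls in every LCN2 library, so this ratio could not overlap. The log2 ratio of Msmo1 to Hsd17b7 was 4.77, 3.90 and 4.76 in LCN2 cells and 3.49, 3.77 and 3.76 in Control cells. That of Nsdhl to Hsd17b7 was 1.29, 1.03 and 0.942 in LCN2 cells and 0.876, 1.06 and 1.07 in Control cells, with overlap. These 3 ratios were chosen after the values were seen and get no test.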
